A study of Mus musculus with 6 samples.

Results

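The genes described here are the 8 that write, maintain and erase DNA methylation in the mouse: *Dnmt1*, *Uhrf1*, *Dnmt3a*, *Dnmt3b*, *Dnmt3l*, *Tet1*, *Tet2* and *Tet3*. They were chosen by name for their function and not by a measured value, although earlier results of these data were known, and are 8 of the 53657 gene names counted in the study. All 8 passed the expression filter that left 19656 genes for testing. RNA was sequenced from undifferentiated spermatogonia (Aundiff), the germ cell pool that holds the stem cells of the testis, sorted from adult mice as tdTomato+ cells bright for the surface protein MCAM. There were 3 samples in each of 2 groups, wild type (WT) and mutant (MUT), collected 3 months after tamoxifen, and the comparison asks what an activated *Hras* allele changes in these cells.

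Both groups carried *Gfra1-creERT2*, a tamoxifen-dependent Cre recombinase driven by the *Gfra1* promoter, and a *tdTomato* reporter, and both received repeated courses of tamoxifen. The MUT mice also carried the *FR-Hras* allele, from which Cre switches on the G12V mutation at the endogenous locus in heterozygous form, and the controls were littermates that lacked this allele. The mice were on a mixed genetic background. As a model the design is limited to cells in which the *Gfra1* promoter was active, and tdTomato marks Cre activity and not the *Hras* mutation itself. Counts on the whole *Hras* gene do not separate the alleles and so check no label here. The study examined the mutated position in the reads, which were not analysed here. Its log2 fold change of MUT against WT was 0.14, with overlapping groups.

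DNA methylation is a methyl group on cytosine, mostly at CG dinucleotides, that is copied after DNA replication by DNMT1 with its guide protein UHRF1. New methylation is placed by DNMT3A and DNMT3B, which DNMT3L assists without having enzyme activity of its own. The TET enzymes oxidize methylcytosine, which leads to its loss by replication or repair. In the male germ line the methylation pattern, including that of imprinted genes and of transposons, is laid down before birth, and spermatogonia in the adult keep it through many divisions. The data are mRNA counts per gene: methylation was not measured, and isoforms and alternative promoters of these genes are not separated.

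Each sample had between 22729292 and 23550433 counts on genes, so that 3 counts, taken here as the limit of counting error, amount to 0.127 to 0.132 CPM (counts scaled by library size). All 12 marker genes of undifferentiated spermatogonia passed the filter, with a summed level of 2269 to 2844 CPM. Markers of other cells were present in every sample. The 5 spermatid markers summed to 593 to 1459 CPM, the 5 macrophage markers to 348 to 635 CPM, the 4 B-lineage markers to 24.9 to 131 CPM and the 5 Leydig cell markers that passed the filter to 12.8 to 66.3 CPM, with the highest Leydig sum in MUT replicate 3. In the Sertoli list 5 of 6 markers passed the filter and summed to 27.1 to 38.3 CPM. The other, the receptor gene *Fshr*, had 2 to 5 counts. WT replicate 3 stood apart: it had the highest spermatid, macrophage and B-lineage sums and the lowest undifferentiated sum, and 27.0% of the tested genes had their lowest value there. Among genes above 10 CPM, the 1114 with at least 10 kb of exon had a median log2 deviation of -0.19 from the 6-sample mean in WT replicate 3 and of 0.022 to 0.092 in the other samples, while shorter genes had a median of 0.0010 in WT replicate 3. Results are therefore also given without this sample. Where the values of all samples are listed, they are in the order of replicates 1, 2 and 3.

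The levels of the 8 genes spanned nearly the whole range of expression. They are compared between genes as TMM-normalized CPM per kilobase of exon, averaged over the 6 samples. *Dnmt1* stood at 97.9 (range 78.2 to 107.5) and *Uhrf1* at 71.3 (61.9 to 79.6), higher than 98.5% and 97.5% of the tested genes. *Dnmt3b* was at 30.5 (26.2 to 34.1), *Dnmt3a* at 13.7 (11.4 to 15.0) and *Tet3* at 11.96 (7.90 to 14.3). The last 3 were *Dnmt3l* at 1.23 (1.04 to 1.42), *Tet2* at 0.381 (0.273 to 0.492) and *Tet1* at 0.143 (0.0875 to 0.178), of which *Tet1* lay above only 2.44% of the tested genes. Among the 7 neighbouring pairs in this order, the ranges of *Dnmt1* and *Uhrf1* overlapped, and so did those of *Dnmt3a* and *Tet3*. The other 5 pairs were separate in every sample.

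**Figure D1:**
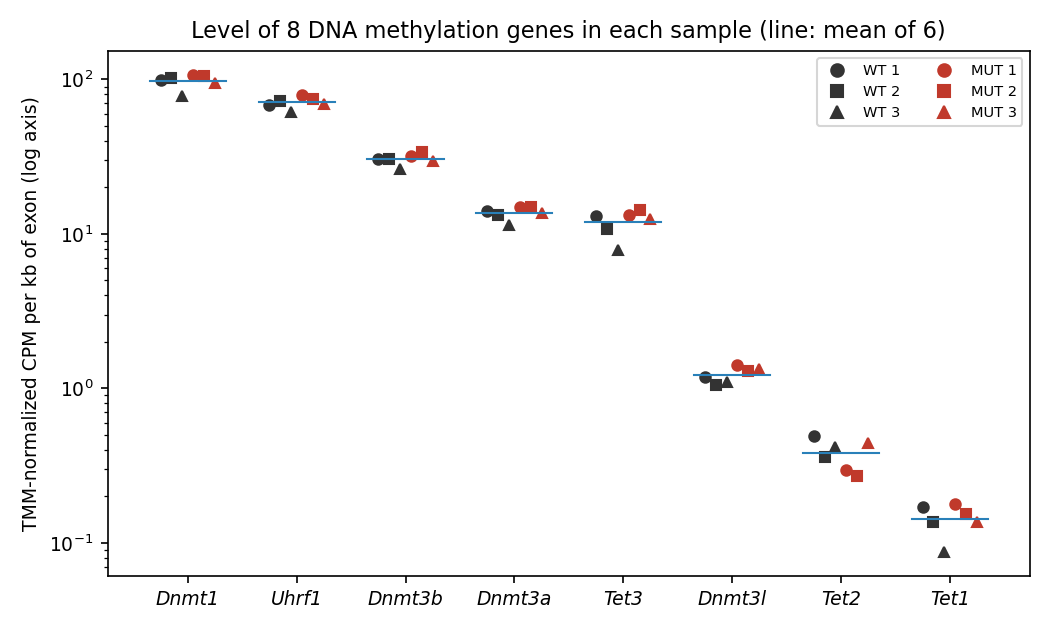
Level of each of the 8 genes in every sample, as TMM-normalized CPM per kilobase of exon on a log axis, with WT in black, MUT in red, a symbol for each replicate number and a blue line at the mean of the 6 samples. *Dnmt1* and *Uhrf1* lie near the top, *Dnmt3b*, *Dnmt3a* and *Tet3* in the middle, and *Dnmt3l*, *Tet2* and *Tet1* below 2, with the WT and MUT symbols close together for each gene.

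Genes of the same role kept their order in every sample. Per kilobase of exon, *Dnmt3b* exceeded *Dnmt3a* by 2.13 to 2.31 times in the 6 samples, and *Dnmt1* exceeded *Uhrf1* by 1.26 to 1.45 times. The size of such ratios depends on the length used. *Dnmt3a* has 16642 bases of exon over all its transcripts, but 9685 in its longest protein-coding transcript. With the latter kind of length *Dnmt3b* ranged from 30.97 to 40.28 and *Dnmt3a* from 19.62 to 25.81, still apart but by a smaller ratio. The ratios given here all use the exon length. *Tet3* made up 94.0% to 97.1% of the summed TET level. *Tet3* exceeded *Tet2* by 18.9 times in WT replicate 3 and by 52.4 times in MUT replicate 2, the lowest and the highest of the samples.

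None of the 8 genes passed the test between MUT and WT. At an FDR of 0.1 in edgeR's quasi-likelihood test, 0 of 8 were called, against a background of 0.0102% of all tested genes (2 genes, both lower in MUT), and all 8 had an adjusted p of 0.998 from edgeR. Unadjusted p-values under 0.05 were reached by 0 of 8, and by 2.78% of the tested genes. With the replicate number as a block, still 0 of 8 were called (background 0.0661%), and 1 of 8, *Tet3*, had an unadjusted p under 0.05 (background 6.60%). DESeq2 also called 0 of 8 (background 0.0241%), with 1 of 8, again *Tet3*, at an unadjusted p under 0.05 (background 1.17%). The DESeq2 shares are over 37285 genes with any count, so they are not comparable with those over the 19656 filtered genes. In limma voom 0 of 8 were called (background 0.0204%), with *Tet3* at an unadjusted p under 0.05 (background 2.96%). Without WT replicate 3, edgeR called 0 of 8 (background 0.0249%), and 0 of 8 had an unadjusted p under 0.05 (background 3.63%). The fitted log2 fold change was above 0 for 7 genes and below 0 for *Tet2*, with a median of 0.15 over the 8 genes beside 0.0066 over all tested genes, of which 10191 were above 0 and 9465 below. Without WT replicate 3 the median of the 8 genes was 0.064. With 3 samples against 3, an exact two-sided permutation test cannot give a p under 0.1. The labels name separate samples and the study's methods describe 3 mice per group, so the p-values measure the spread between mice that were each sorted and sequenced once. In bulk RNA, fewer cells that express a gene and less RNA per cell cannot be told apart.

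The intervals say how large a difference these data leave room for. For 4 of the 8 genes, *Dnmt1*, *Uhrf1*, *Dnmt3a* and *Dnmt3b*, the 95% confidence interval of the fold change lay wholly within 1.5-fold of no change, as it did for 59.1% of all tested genes and for 92.0% of genes above 10 CPM. The intervals of *Dnmt3l*, *Tet1*, *Tet2* and *Tet3* reached beyond 1.5-fold, so a difference of that size cannot be told from none for these genes.

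**Figure D2:**
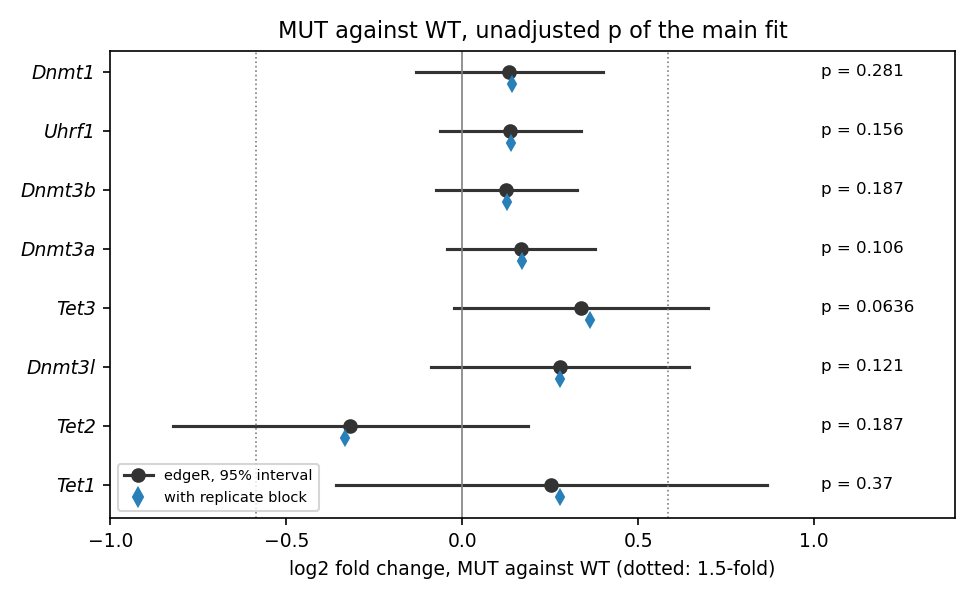
Log2 fold change of MUT against WT for each of the 8 genes (horizontal axis), with black points and lines for the edgeR estimate and its 95% confidence interval, blue diamonds for the fit with the replicate block, and dotted lines at 1.5-fold. Every interval includes 0, 4 of them stay between the dotted lines, and *Tet2* is the only gene with an estimate below 0.

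*Dnmt1* encodes the maintenance methyltransferase. The gene lies at chr9:20907209-20959888 (minus strand, GRCm38), with 7377 bases of exon over all its transcripts. Its level was 734.7, 753.6 and 577.2 CPM for the WT samples against 793.1, 774.2 and 698.6 CPM for the MUT samples, that is 688.5 ± 96.9 CPM in WT and 755.3 ± 50.0 CPM in MUT (SD, n = 3). MUT replicates 1 and 2 were the highest and WT replicate 3 the lowest, and the groups overlapped. The log2 fold change was 0.13 (SE 0.12, 95% interval -0.13 to 0.40), with an exact permutation p of 0.4. Without WT replicate 3 it was 0.021.

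*Uhrf1* encodes the protein that recognizes hemimethylated DNA behind the replication fork and brings DNMT1 to it. It lies at chr17:56303321-56323486 (plus strand), with 4259 bases of exon. Its level was 292.9, 310.9 and 263.4 CPM for the WT samples against 339.0, 318.2 and 296.4 CPM for the MUT samples. The samples were ordered much as for *Dnmt1*, with WT replicate 3 lowest and MUT replicate 1 highest, and MUT replicate 3 fell among the WT values. Its log2 fold change was 0.14 (SE 0.088, interval -0.064 to 0.34), the exact permutation p was 0.2, and the value was 0.074 without WT replicate 3 and 0.081 without MUT replicate 1.

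The promoters of the 8 genes were compared by their sequence. The 250 bases before each annotated start were taken from RefSeq for GRCm38.p6, where all 8 genes had an entry and 15 windows in all. Letters of the E2F type, the motif of the factors that switch on genes of the DNA replication phase, were searched on both strands as TTTCCCGC, TTTCGCGC and TTTGGCGC. They occurred in 2 of the 15 windows, 1 of *Dnmt1* and 1 of *Uhrf1*, and in 504 of the 32851 windows of the whole table (1.53%). A match is a string of letters and no evidence of binding. The 30 bases around each match are shown, with the match in capitals, 5′ to 3′ on the strand of the gene. The *Dnmt1* stretch is chr9:20952824-20952853 on the minus strand, with its match beginning 219 bases before 1 of the 3 annotated starts of the gene, and that of *Uhrf1* is chr17:56304117-56304146 on the plus strand, with its match beginning 185 bases before 1 of its starts. In the *Dnmt1* window 166 of the 250 bases are annotated as exon of the gene, so that window is not only upstream sequence.
Dnmt1: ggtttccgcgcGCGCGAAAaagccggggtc
Uhrf1: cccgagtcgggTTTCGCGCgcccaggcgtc

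Genes of DNA replication and cell division, which are transcribed with *Dnmt1* and *Uhrf1* in dividing cells, were listed as a measure of the cell cycle. Of these 13 genes, *Pcna* and *Mki67* among them, 0 were called (background 0.0102% of the tested genes). Estimates were above 0 for 12, and their median log2 fold change was 0.099. *Pcna*, the sliding clamp of DNA polymerase, had 122.5, 132.8 and 149.7 CPM for the WT samples against 128.5, 146.6 and 123.8 CPM for the MUT samples. The proliferation marker *Mki67* had 434.4, 492.8 and 354.7 CPM for the WT samples against 465.3, 497.4 and 465.7 CPM for the MUT samples. *Mki67*, like the maintenance genes, was lowest in WT replicate 3, whereas *Pcna* was highest there. The part of cell division in the *Dnmt1* and *Uhrf1* values was not tested.

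Among the de novo writers, *Dnmt3a* and *Dnmt3b* encode the active enzymes. *Dnmt3a* lies at chr12:3806007-3914443 (plus strand), with 16642 bases of exon, of which 0.799% is shared with its antisense gene *Dnmt3aos*. It had 234.7, 220.7 and 190.0 CPM for the WT samples against 248.5, 249.9 and 226.2 CPM for the MUT samples. All 3 MUT samples were above WT replicates 2 and 3, but MUT replicate 3 was below WT replicate 1. For *Dnmt3a* the log2 fold change was 0.17 (SE 0.092, interval -0.044 to 0.38, exact permutation p = 0.2) and was 0.085 without WT replicate 3.

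*Dnmt3b* lies at chr2:153649450-153687730 (plus strand), with 5106 bases of exon. Its level was 156.4, 156.3 and 133.8 CPM for the WT samples against 162.6, 174.0 and 150.6 CPM for the MUT samples. WT replicate 3 was again the lowest sample, with MUT replicate 3 below WT replicates 1 and 2. MUT against WT gave a log2 fold change of 0.13 (SE 0.088, interval -0.074 to 0.33, exact permutation p = 0.3), or 0.055 without WT replicate 3 and 0.060 without MUT replicate 2.

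*Dnmt3l*, the cofactor without enzyme activity, is best known from fetal germ cells and growing oocytes, where imprints depend on it. It lies at chr10:78041947-78063622 (plus strand), with 2988 bases of exon, of which 2.24% overlaps *Aire* on the other strand. In these adult cells it had 81, 73 and 78 counts for the WT samples against 97, 89 and 93 counts for the MUT samples, so its level was low but well above the counting limit. Normalized, these were 3.54, 3.12 and 3.30 CPM for the WT samples against 4.24, 3.86 and 3.98 CPM for the MUT samples. Of the 8 genes it alone had groups that did not overlap, every MUT sample lying above every WT sample, a pattern that 4.69% of the tested genes had in that direction. The nearest samples, WT replicate 1 and MUT replicate 2, had 81 and 89 counts. The limit of 3 counts does not say whether that gap exceeds counting error, which was not tested. The log2 fold change was 0.28 (SE 0.16, interval -0.090 to 0.65), the exact permutation p was 0.1, the smallest this design allows, and the value without WT replicate 3 was 0.27. The difference fails the correction for multiple tests, with an adjusted p of 0.998 from edgeR.

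*Tet3* was by far the main TET gene of these cells. In the zygote its protein oxidizes the methylcytosine of the paternal genome. It lies at chr6:83362373-83459084 (minus strand), with 16695 bases of exon. The level was 216.7, 180.7 and 131.9 CPM for the WT samples against 220.5, 238.6 and 209.6 CPM for the MUT samples, or 176.4 ± 42.5 CPM in WT and 222.9 ± 14.7 CPM in MUT (SD, n = 3). The 3 MUT samples were close together, the WT samples were widely spread, and WT replicate 1 lay within the MUT range. The log2 fold change of 0.34 (SE 0.16, interval -0.024 to 0.70) was the largest of the 8 genes, with an unadjusted p of 0.0636 in edgeR and an exact permutation p of 0.2. With the replicate block the unadjusted p was 0.00711 and the adjusted p 0.404 in edgeR. Without WT replicate 3 the fold change was 0.17, and without WT replicate 1 it was 0.50. Genes with at least 10 kb of exon had a median deviation of -0.19 in WT replicate 3 on the log2 scale. Of the 8 genes, those of such length had -0.57 (*Tet3*), -0.26 (*Dnmt3a*), -0.65 (*Tet1*) and 0.17 (*Tet2*). With a correction for exon length the log2 fold change of *Tet3* was 0.30.

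*Tet2*, known as a tumor suppressor of blood cells, was the exception in direction. It lies at chr3:133463679-133545139 (minus strand), with 16870 bases of exon. Its counts were 190, 141 and 167 for the WT samples against 115, 106 and 176 for the MUT samples, and its levels 8.30, 6.03 and 7.06 CPM for the WT samples against 5.03, 4.60 and 7.52 CPM for the MUT samples. MUT replicates 1 and 2 were below all WT samples, while MUT replicate 3 was above WT replicates 2 and 3. The log2 fold change was -0.32 (SE 0.22, interval -0.82 to 0.19, exact permutation p = 0.3), and it was -0.32 without WT replicate 3. Its size rested on single samples, with -0.57 without MUT replicate 3 (adjusted p = 0.423 in edgeR), -0.20 without MUT replicate 2 and -0.20 without WT replicate 1. The 3 samples with the most *Tet2*, WT replicates 1 and 3 and MUT replicate 3, also had the highest sums of the 5 spermatid markers, 1156, 1459 and 1131 CPM, against 857 CPM in WT replicate 2 and 593 and 620 CPM in MUT replicates 1 and 2. The 5 macrophage markers summed to 471, 424 and 635 CPM for the WT samples against 348, 423 and 455 CPM for the MUT samples. Their part in the *Tet2* values was not tested.

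*Tet1*, prominent in embryonic stem cells and primordial germ cells, had the lowest level per length of the set. It lies at chr10:62804570-62908996 (minus strand), with 15457 bases of exon. It had 60, 49 and 32 counts for the WT samples against 63, 55 and 49 counts for the MUT samples, which is 2.62, 2.09 and 1.35 CPM for the WT samples against 2.75, 2.39 and 2.09 CPM for the MUT samples. The groups overlapped, and WT replicate 3 alone lay well below the rest. Its log2 fold change of 0.25 (SE 0.27, interval -0.36 to 0.87, exact permutation p = 0.4) was 0.032 without that sample, 0.14 without MUT replicate 1 and 0.47 without WT replicate 1.

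**Figure D3:**
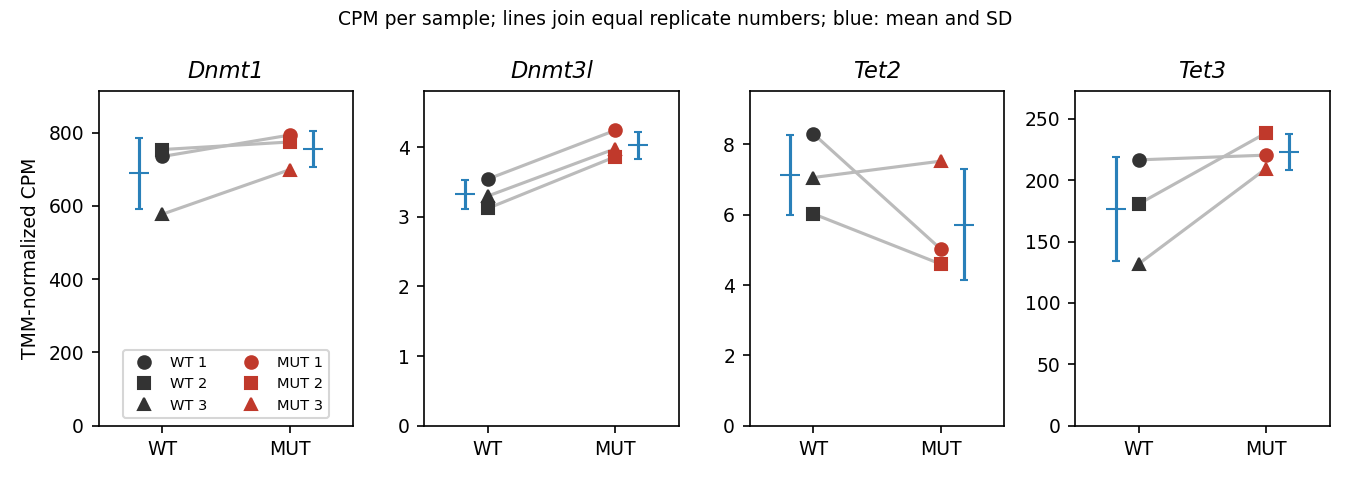
TMM-normalized CPM of *Dnmt1*, *Dnmt3l*, *Tet2* and *Tet3* in each sample (vertical axes start at 0), with WT and MUT samples of equal number joined by grey lines and the mean and SD of each group in blue (n = 3). The groups are apart for *Dnmt3l*, the lines of *Tet2* run in both directions, and the low point of *Dnmt1* and *Tet3* in WT is replicate 3.

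The CG content of the promoters differed widely between the 8 genes. The *Tet2* window held 51 CG dinucleotides, more than 99.9% of the windows in the table, whose median was 6. The lowest count among the 15 windows was 2, in 1 of the windows of *Dnmt1*. All *Dnmt3l* windows were low, with between 3 and 5. The 250 bases of *Tet2*, chr3:133544391-133544640 on the minus strand, and of the *Dnmt3l* window with the fewest CG, chr10:78055085-78055334 on the plus strand, are shown as an example of a CG-rich and of a CG-poor promoter (GRCm38.p6, RefSeq, 5′ to 3′ on the strand of the gene) with each CG in capitals.
Tet2: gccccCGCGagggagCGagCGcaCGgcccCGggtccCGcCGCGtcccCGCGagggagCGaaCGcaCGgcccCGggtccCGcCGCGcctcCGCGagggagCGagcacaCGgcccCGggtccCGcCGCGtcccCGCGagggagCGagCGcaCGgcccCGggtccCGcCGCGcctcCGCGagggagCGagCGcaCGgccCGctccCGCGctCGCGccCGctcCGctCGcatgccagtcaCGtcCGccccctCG
Dnmt3l: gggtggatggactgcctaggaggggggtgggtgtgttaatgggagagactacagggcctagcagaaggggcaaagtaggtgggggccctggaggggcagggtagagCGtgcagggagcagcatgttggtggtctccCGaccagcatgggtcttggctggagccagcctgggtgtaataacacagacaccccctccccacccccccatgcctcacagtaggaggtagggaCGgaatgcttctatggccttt

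Across samples, most of the 8 genes moved together. *Dnmt1*, *Uhrf1*, *Dnmt3a*, *Dnmt3b*, *Tet1* and *Tet3* were each lowest in WT replicate 3, and over the 6 samples their log2 CPM had Pearson correlations of 0.77 to 0.97 with each other. *Tet2* had negative correlations with the other 7 genes, from -0.71 to -0.30. Within a sample all genes come from the same library at the same depth, and a single sample, WT replicate 3, contributes much of the spread, with deviations of -0.32 for *Dnmt1*, -0.57 for *Tet3* and -0.65 for *Tet1* from the 6-sample mean on the log2 scale. Within same-numbered samples, MUT was above WT in 3 of 3 pairs for 7 genes, as it was for 14.1% of the tested genes, and in 1 of 3 pairs for *Tet2*. For 6 of these 7 genes the WT sample of pair 3 was the lowest of all samples. The within-group spread differed between the genes as well. *Dnmt3l* had an SD of 0.079 and *Uhrf1* of 0.11 on the log2 scale, whereas *Tet3* had 0.26, *Tet2* 0.31 and *Tet1* 0.35. The median was 0.11 for genes above 10 CPM, a set that leaves out *Dnmt3l*, *Tet1* and *Tet2*. The part of counting error in the SDs of these low genes was not tested.

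**Figure D4:**
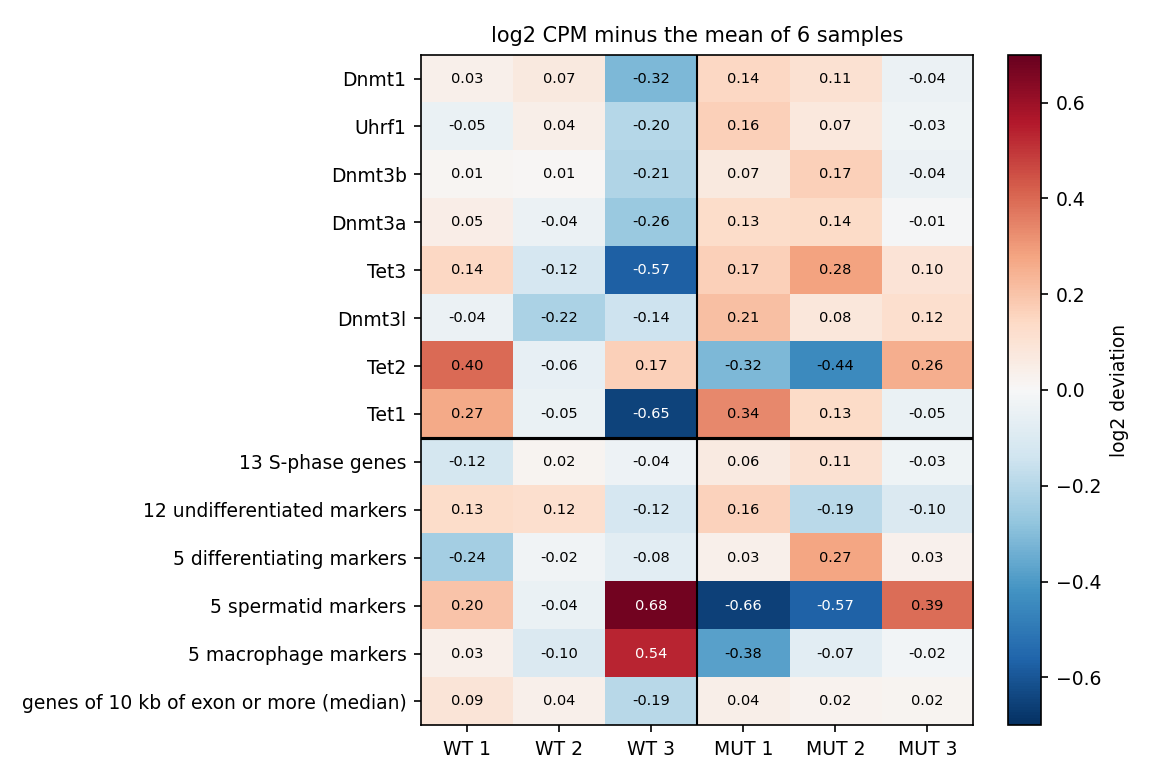
Deviation of each sample's log2 CPM from the mean of the 6 samples (color and printed value), for the 8 genes in the upper rows and, in the lower rows, the mean over the S-phase and cell type marker lists and the median of genes with at least 10 kb of exon. The column of WT replicate 3 is blue for 7 of the 8 genes and red for the spermatid and macrophage markers.

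The genes whose pattern over the 6 samples was most like that of each of the 8 were found among genes above 10 CPM by Pearson correlation of log2 CPM. They included *Klc4* for *Uhrf1* (r = 0.996), *Ubtd2* for *Dnmt3a* (0.997), *Blm* for *Dnmt3b* (0.997), *Itga9* for *Dnmt3l* (0.976), *Kdm5b* for *Tet1* (0.996), *Clpb* for *Tet2* (0.991) and *Rasd2* for *Tet3* (0.999). With 6 samples such values are common: 859 genes had a correlation above 0.9 with *Dnmt1* and 876 with *Tet1*, but only 44 with *Dnmt3l*.

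Outside the 8 genes, 55 partners of the pathway were listed, of which 53 passed the filter. None of the 53 was called without the replicate block (background 0.0102% of the tested genes) or with it (background 0.0661%). In edgeR 0 had an unadjusted p under 0.05 (background 2.78%), and 1, *Apobec1*, with the block (background 6.60%). Of the 53, 39 had estimates above 0, with a median log2 fold change of 0.034. Estimates ran from -0.53 to 0.23. One gene, *Mbd2*, a reader of methylated CG, had groups that did not overlap, with 79.6, 80.3 and 82.8 CPM for the WT samples against 76.8, 73.5 and 76.5 CPM for the MUT samples. Of all tested genes 3.00% were apart in that direction. Its log2 fold change of -0.097 (SE 0.060) had an unadjusted p of 0.143 in edgeR.

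The 17 writing partners tested had a median log2 fold change of 0.049, with 14 above 0. *Hells*, a chromatin remodeler needed for methylation of repeats, had 460.6 ± 17.5 CPM in WT and 476.1 ± 29.2 CPM in MUT (SD, n = 3), and *Cdca7*, which recruits it, had 262.2 ± 3.68 and 267.6 ± 24.1 CPM. *Zbtb24*, a regulator of *Cdca7*, had 30.6 ± 1.0 CPM in WT and 28.0 ± 2.23 CPM in MUT, a log2 fold change of -0.13 (SE 0.089). *Uhrf2*, the paralog of *Uhrf1*, had 67.5 ± 6.28 CPM in WT and 62.6 ± 4.55 CPM in MUT, and *Usp7*, the deubiquitinase that binds DNMT1 and UHRF1, 451.7 ± 28.9 and 467.6 ± 16.6 CPM. The corepressor *Trim28*, which protects imprints, stood at 602.9 ± 27.6 CPM in WT and 603.4 ± 30.5 CPM in MUT. *Ctcfl*, the germ line relative of CTCF, had the highest estimate of the list at 0.23 (SE 0.15), and *Dppa3*, which shields the maternal genome from oxidation, had only 1.37 ± 0.280 and 1.49 ± 0.039 CPM. *Dnmt3c*, a rodent enzyme that methylates young transposons in fetal male germ cells, was matched by its coordinates and had 4, 9 and 5 counts for the WT samples against 2, 6 and 2 counts for the MUT samples. It did not pass the filter and was not tested, and some of its values are at or under the counting limit. Reads it shares with its near copy *Dnmt3b* were left out of the counts where they aligned to both.

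Among the 17 tested partners of removal and repair, 9 were above 0 and 8 below, with a median of 0.0021. *Tdg*, the glycosylase that excises the oxidized bases made by TET enzymes, had 20.03 ± 0.746 CPM in WT and 20.6 ± 2.67 CPM in MUT. The glycosylase *Mbd4* had 35.7 ± 3.39 and 38.5 ± 1.4 CPM, and *Apex1*, the nuclease of the next repair step, 53.6 ± 1.79 and 58.3 ± 6.18 CPM (log2 fold change 0.12, SE 0.087). *Apobec1*, a cytidine deaminase, had the lowest estimate at -0.53 (SE 0.35), with 8.7, 12.1 and 18.7 CPM for the WT samples against 7.2, 6.4 and 13.8 CPM for the MUT samples. With the replicate block its unadjusted p was 0.00381 and its adjusted p 0.312 in edgeR. It was highest in WT replicate 3, the sample with the highest macrophage sum, and the part of such cells in its values was not tested.

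The 9 readers had a median of 0.025, with 8 above 0. The 10 genes of methyl donor supply had a median of 0.056, with 8 above 0. *Mat2a*, which makes the methyl donor S-adenosylmethionine, had 271.8 ± 7.19 CPM in WT and 281.3 ± 2.49 CPM in MUT, with a log2 fold change of 0.049 (SE 0.064, interval -0.098 to 0.20).

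**Figure D5:**
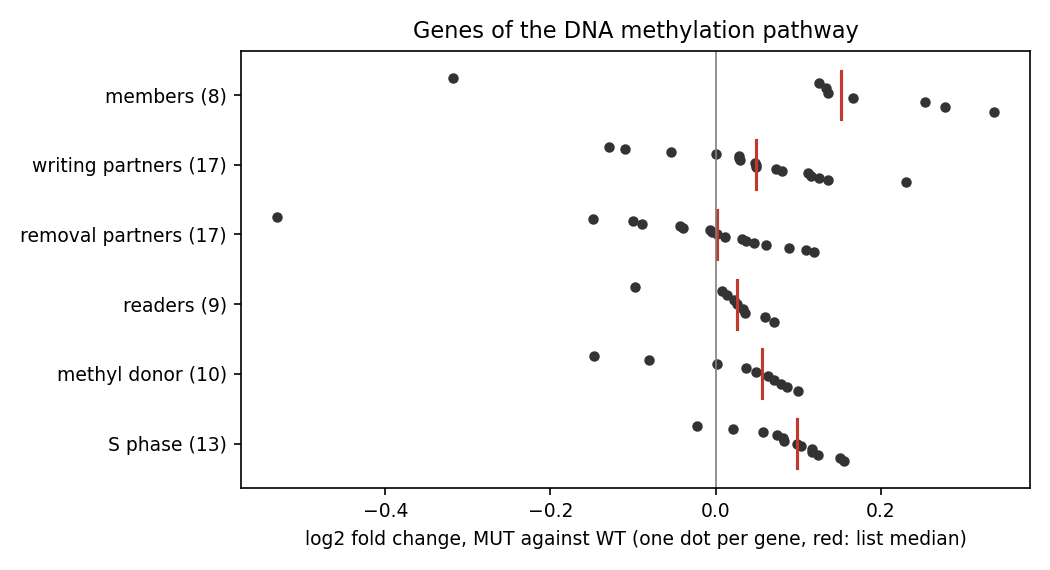
Log2 fold change of MUT against WT (horizontal axis), 1 point per gene that passed the filter, for the 8 genes, the 4 partner lists and the S-phase list, with a red line at each median. The list medians lie between 0.0021 and 0.15, and *Tet2* among the 8 genes and *Apobec1* among the removal partners lie farthest below 0.

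Markers of the stage of the germ cells are given beside these values, because methylation genes differ in level between stages. *Gfra1* encodes a receptor that the study describes as broadly expressed in undifferentiated spermatogonia, and its promoter drives the Cre. It had 147.5, 146.3 and 110.1 CPM for the WT samples against 132.9, 103.5 and 114.5 CPM for the MUT samples. *Kit*, the receptor of differentiating spermatogonia, had 135.7, 165.5 and 123.6 CPM for the WT samples against 155.4, 226.2 and 163.8 CPM for the MUT samples, and WT replicate 2 overlapped the MUT range. *Stra8*, induced by retinoic acid at the same step, had 159.0, 173.0 and 174.6 CPM for the WT samples against 184.6, 242.5 and 186.8 CPM for the MUT samples, with no overlap. Of the 5 differentiation markers 0 were called (background 0.0102% of the tested genes), all 5 had estimates above 0, and the median was 0.21. An unadjusted p under 0.05 in edgeR was reached by 2 of the 5, *Kit* (0.0497) and *Stra8* (0.0361), beside 2.78% of the tested genes. Groups that did not overlap, with MUT higher, were seen for 2 of the 5, beside 4.69% of the tested genes. Of the 12 undifferentiated markers 0 were called (background 0.0102%) and 8 had estimates below 0, with a median of -0.14. MUT replicate 2, which had the most *Kit* and *Stra8*, also had the highest *Dnmt3a*, *Dnmt3b* and *Tet3* values, but the lowest *Tet2* value. *Dnmt1*, *Uhrf1*, *Dnmt3l* and *Tet1* were highest in MUT replicate 1. The part of cell stage in the values of the 8 genes was not tested.

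Among the listed marker genes, those called were called only with the replicate block. They were the spermatid gene *Tnp1*, which replaces histones in sperm chromatin, with a log2 fold change of -0.63 (adjusted p = 0.0794 in edgeR with the block), and the B-lineage gene *Jchain*, which joins antibody units, with -2.86 (adjusted p = 0.0257 in edgeR with the block). Without the block both had an adjusted p above the threshold, and no pathway gene was called in either fit.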

How the data were processed

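RNA-seq values were used for 6 samples, 3 WT and 3 MUT, grouped and numbered by the sample titles. The authors made stranded mRNA libraries and deposited, for each gene name, the raw counts that featureCounts 1.6.2 gave on GENCODE vM17 with tdTomato added, without normalization. The build was GRCm38.p6, and STAR and FastQC are named in the submitters' processing notes, with versions not given in the sources used here. The file headers show that strand was not used, so fragments of genes overlapping on opposite strands cannot be told apart.

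Library sizes were scaled by TMM in edgeR 4.0.16 under R 4.3.3, filterByExpr kept 19656 genes, and genotype was tested by the quasi-likelihood test with Benjamini-Hochberg adjustment over all of them at an FDR of 0.1, the study's threshold. SEs and 95% intervals come from the F statistic. Log2 CPM used a prior count of 2. Levels between genes used the exon length in the files. The steps were tested on simulated data. With 3 samples a group and similar depth, precision is set by the spread between samples, and the counting limit covers counting error only.

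Replicate numbers come from the titles. The titles do not say that samples of equal number are pairs. Deviations of same-numbered samples from their group means had correlations across 10583 genes of 0.30, 0.16 and 0.40. Samples of unlike number were not compared in this way, so these values cannot show a pairing. The numbers were treated as pairs by assumption, and a fit with the replicate block was run beside the main one. Its p-values rest on that assumption.

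The 8 genes, the lists and the tests were chosen with earlier results of these data known. Named were the 8 genes, 12 fixed partners, the 6 partners with the smallest unadjusted p, *Pcna*, *Mki67*, *Gfra1*, *Kit*, *Stra8*, listed genes with an adjusted p under 0.1 in either fit, and the gene most like each of the 8. Outside this rule, *Hras* and *Fshr* were named after their values were seen. The results for some genes that the rule selects are not reported here. Alternatives were DESeq2 1.42.0, voom of limma 3.58.1, DESeq2 size factors, other filters, an FDR of 0.05, the block, leaving out each sample and, chosen after seeing the data, the length of the longest protein-coding transcript and a correction for exon length. Promoters came from RefSeq.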

Additional observations from a re-analysis of the deposited data

How the results depend on the processing

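None of the 8 genes and none of the partners was called under any setting, and no fold change of the 8 genes changed direction. In the fit with at least 10 counts in every sample, which also called 0 of all genes, 479 genes had an unadjusted p under 0.05. Over all genes, 2 were called in the main fit, 9 by DESeq2, 4 by limma voom, 5 with no filter, 0 with at least 10 counts in every sample, 1 at an FDR of 0.05, 1 with the exon length correction and 4 with that correction and the replicate block. With the replicate block 13 genes were called in edgeR and 55 in DESeq2, and the block changed no call among the 8 genes or their partners. With each sample left out in turn, between 0 and 6 genes were called. The counts of neighbouring levels that overlapped, 2 of 7 pairs, became 1 when library totals were used with no further scaling and 1 with the length of the longest transcript, with the order of the 8 genes unchanged in the latter, and ran from 1 to 2 when each sample was left out. The lowest adjusted p of any of the 8 genes was 0.312, for *Tet3* in DESeq2 with the block. The median log2 fold change of the 8 genes ran from 0.064, without WT replicate 3, to 0.20. Leaving out WT replicate 3 brought *Dnmt1* from 0.13 to 0.021 and *Tet1* from 0.25 to 0.032, and raised the number of genes with an interval within 1.5-fold from 4 to 6. The causes were not tested. *Tet1*, *Dnmt3l* and *Tet2* had only 32 to 190 counts per sample, and the part of depth in the width of their intervals was not tested.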
